A study of Mus musculus with 16 samples.

Results

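Cytosolic ribosomal protein genes were examined in 16 bulk RNA-seq libraries of primary murine gingival fibroblasts (mGF). A gene belonged to the set when its symbol started with Rpl or Rps followed by a digit, or was Rplp0, Rplp1, Rplp2 or Rpsa. Symbols marked as pseudogenes (-ps) and the Rps6k kinases were left out, and a gene needed at least 10 counts in at least 4 libraries. This rule kept 87 of the 56941 genes in the table, and 94 symbols matched before the count minimum. Of the 87 genes, 45 encode large (60S) subunit proteins and 31 encode small (40S) subunit proteins. The other 11 genes are 4 paralogues (Rpl22l1, Rpl7l1, Rps27l and Rps4l), 6 retrocopies or like genes (Rpl6l, Rpl32l, Rpl37rt, Rps27rt, Rps3a2 and Rps3a3) and Rps19bp1, which encodes a partner of a ribosomal protein and not a ribosomal protein. The least counted gene that passed, Rps3a3, had 224 counts in all and reached 10 counts in 14 libraries. Outside the minimum were Rpl24 with 97 counts, Rpl39l and Rpl36al with 91 each, Rpl3l with 28, Rps12l1 with 4, Rps23rg1 with 3 and Rpl10l with 1, of which Rpl24 and Rpl39l each reached 10 counts in 2 libraries.

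The fibroblasts were grown from gum explants of WT C57Bl6 mice aged 3 to 6 months and used between passages 2 and 8. They were kept for 24 h in BSA, the albumin vehicle, in 1 ng/mL IL-1β, in 200 µM palmitate carried on BSA, or in palmitate + IL-1β at the same doses, with 4 libraries per condition. Palmitate is a saturated fatty acid and IL-1β is an inflammatory cytokine, and the study asked how the fatty acid alters these cells with and without the cytokine. The labels do not say whether libraries of a condition came from separate cultures or animals, so the spread and the p-values below may be technical.

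Library depth, as counts assigned to genes, ran from 21234789 to 92752515, the latter in palmitate replicate 10. All 10 fibroblast markers checked, among them Col1a1 and Pdgfra, had counts in every library, with 28459 to 33699 CPM in sum. The summed CPM of 5 epithelial markers was 0.164 to 0.759, that of 6 macrophage markers 2.57 to 4.35, that of 4 endothelial markers 1.42 to 2.25 and that of 4 mural or muscle markers 77.2 to 112. The epithelial marker Krt8 had at most 1 count and the macrophage marker Adgre1 at most 3 counts in any library. Reads that matched more than 1 place in the genome were not counted and made up 3.42% to 4.51% of each library, and reads that fell in more than 1 gene made up 1.22% to 1.37%.

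A ribosome joins a small subunit, which reads the mRNA, to a large subunit, which forms the peptide bond, and each carries a fixed set of proteins made in matching amounts. Many of the mRNAs start with a 5′ terminal oligopyrimidine (TOP) tract, a C followed by pyrimidines, through which mTORC1 signalling through LARP1 controls their translation. Ribosomal protein mRNAs have also been copied back into the genome many times as processed pseudogenes, so reads from the parent gene often match several places.

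The TOP tract was searched in RefSeq promoter sequences of GRCm38.p6, on the gene strand, as a C followed by at least 4 letters that are C or T, starting within 5 bases of the first listed start site. Of the 87 genes, 63 had an entry and 30 of these (47.6%) held the tract, against 18.5% of all 27025 symbols in the table. With any listed start the shares were 49.2% and 21.2%. The start sites used in these cells were not examined, so a gene without the tract here may carry one at another start. A match could also lie ahead of the start site, as in Rpl19, where 5 letters begin 5 bases before it. The windows below run from 10 bases before the start site through the 20 bases from it, and capitals mark the tract. They are shown for genes that the results turn on, 3 with the tract and 4 without it in this window.
Rpl35 (chr2:39005112-39005141, minus strand): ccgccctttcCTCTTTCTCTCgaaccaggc
Rps18 (chr17:33955646-33955675, minus strand): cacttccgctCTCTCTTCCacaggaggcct
Rps6 (chr4:86857348-86857377, minus strand): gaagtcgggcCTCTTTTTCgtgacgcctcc
Rpsa (chr9:120127756-120127785, plus strand): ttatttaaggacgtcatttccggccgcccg
Rpl7l1 (chr17:46782637-46782666, minus strand): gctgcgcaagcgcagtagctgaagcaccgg
Rps16 (chr7:28350679-28350708, plus strand): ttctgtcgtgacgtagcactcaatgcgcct
Rpl35a (chr16:33056443-33056472, plus strand): gcgtgcgtcccacaaggccgcgcggcgggg

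Levels differed widely between genes of the set. They are given as CPM (the share of a library's gene counts on a common scale, with library sizes scaled by the trimmed mean of M values, TMM) divided by the length of the annotated transcript in kb, as the mean of the 4 BSA libraries. Rplp1, an acidic stalk protein of the large subunit, was highest at 1888 CPM per kb, followed by Rpsa, the laminin receptor protein of the small subunit, at 1714. Rpl26 at 1356, Rps2 at 899 and Rps18 at 833 CPM per kb completed the highest 5. At the low end were Rpl32l at 2.02, Rps27rt at 1.63, Rpl6l at 1.61, Rps3a2 at 0.809 and Rps3a3 at 0.529 CPM per kb, all retrocopies or like genes. Among genes of the core subunits, Rps10 (2.35 CPM per kb) and Rpl37 (2.85 CPM per kb) were lowest. The Rps10 transcript is overlapped on the same strand over 91.6% of its length by another gene, Gm49804, and Rpl13a (17.2 CPM per kb), a 60S protein of known function outside the ribosome, over 59.3% by Gm45713 and Mir5121. Rpl37 has an annotated transcript of 6111 bases, which lowers its level per kb.

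Most of the core genes share coding sequence with other loci. Coding sequences were cut into 100-base windows every 10 bases and searched for a further exact match in GRCm39 outside the gene. The paper reports paired reads that are longer than these windows. The shares of windows are thus not shares of reads left uncounted. The median share over the 76 core genes was 74.3% of windows, 25 genes had a match for every window and 4 had none. Rpl24, with 97 counts in all, had 100% of its coding windows elsewhere and 71.5% of its transcript overlapped by Gm28037. The 322 pseudogenes with -ps in their symbol took 0.00996% to 0.0156% of gene counts in each library, and 78 of them reached 10 counts in 4 libraries. That share leaves out pseudogenes under other names and so understates the counts at such copies. Annotated pseudogenes at loci that match transcript or coding windows of Rplp1 had 19008 counts over all libraries beside 529006 of Rplp1 itself. For Rpl41 they had 18175 beside 90311, and for Rpl13a 8354 beside 8978. Only 1 of the 52 coding windows of Rpl13a has such a match, so these counts do not measure reads lost by Rpl13a. The median level was 125 CPM per kb for the 12 genes with under 10% of coding windows shared, 181 for the 32 genes with 10% to under 75% and 107 for the 38 genes with 75% or more. These ranges overlapped widely, and 5 genes had no annotated coding sequence.

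**Figure D1:**
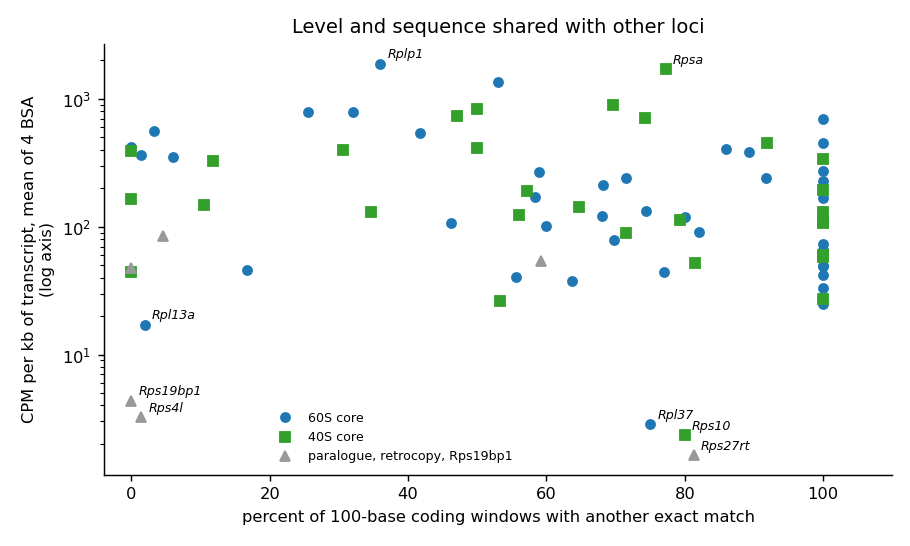
Level of the 82 ribosomal protein genes with a coding sequence (CPM per kb of transcript, mean of 4 BSA libraries, log axis) against the percent of their 100-base coding windows with another exact match in GRCm39. Circles are 60S genes, squares 40S genes and triangles paralogues, retrocopies and Rps19bp1. Genes with all windows shared span much of the same range as genes with few, and Rps10, Rpl37 and Rps27rt lie near the bottom at 75% to 81.2% shared. Rps4l and Rps19bp1 also lie low, at 1.45% and 0% shared.

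The ribosomal protein genes took about the same part of the counts in BSA, palmitate and palmitate + IL-1β. In bulk RNA, fewer cells of a type and less RNA per cell cannot be told apart. The 4 BSA libraries held 2.20%, 1.96%, 1.92% and 2.16% of gene counts in the 87 genes, the IL-1β libraries 2.02%, 2.00%, 1.90% and 1.73%, the palmitate libraries 2.07%, 2.14%, 2.15% and 2.07%, and the palmitate + IL-1β libraries 2.08%, 2.06%, 2.15% and 2.09%. The mean was 2.06% ± 0.140 (SD, n = 4) for vehicle, 1.91% ± 0.133 for cytokine alone, 2.11% ± 0.0400 for fatty acid alone and 2.10% ± 0.0396 for the combination. These shares are a description and were not tested. Each condition overlapped BSA, while the IL-1β libraries all lay below the palmitate libraries and below the palmitate + IL-1β libraries. The 60S and 40S genes kept a similar proportion, with 1.39 to 1.49 counts in 60S genes per count in 40S genes over the 16 libraries.

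**Figure D2:**
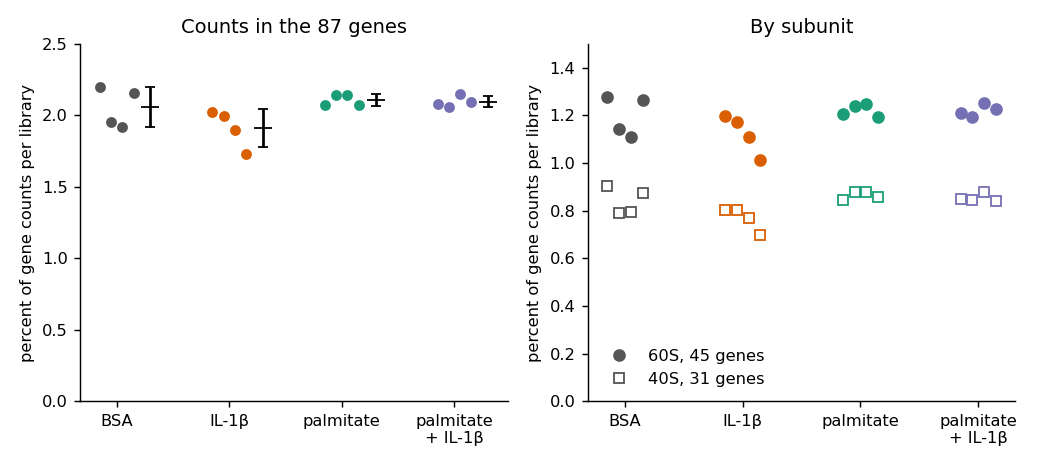
Percent of gene counts per library in the 87 ribosomal protein genes (left, with mean and SD of 4 libraries) and in the 60S and 40S core genes (right) by condition. Libraries with palmitate, alone or with the cytokine, sit at 2.06% to 2.15%, those in BSA at 1.92% to 2.20%, and those with the cytokine alone at 1.73% to 2.02%.

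Few ribosomal protein genes were called with palmitate alone. Against BSA, 7 of 87 genes (8.05%) were higher and 1 (1.15%) was lower at an adjusted p under 0.05 (quasi-likelihood test in edgeR, Benjamini-Hochberg adjusted over all genes), beside 19.8% of all 16306 genes tested called higher and 17.5% called lower. Among the 77 set genes with an average log2 CPM above 4, 9.09% were higher and 1.3% lower. Of the 7097 other genes of that abundance, 31.1% were higher and 19% lower. None of the changes in the set exceeded 2-fold, and 3 of the called ones exceeded 1.2-fold. The median log2 fold change of the 87 genes was 0.13, beside -0.0030 over all genes tested. Of the fitted changes 68 were positive and 19 negative, beside 8083 and 8223 of all genes tested. In the set 29 genes had a 95% interval wholly within 1.2-fold of no change, and in the others a change of that size was not shown to be absent. With upper-quartile normalization 2 genes were higher and 4 lower. Over all genes it gave 2402 higher and 4064 lower, so that 37.1% of calls were rises in place of 53.1%. The difference between the medians of the set and of all genes was 0.13 on the log2 scale under both. A change of scaling moves all genes by about the same amount, so this difference could hardly change and is no check on the scaling.

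Rpl7l1 held the firmest rise. It encodes a nucleolar relative of Rpl7 that acts in assembly of the large subunit, and lies at chr17:47084824-47093606 on the minus strand (GRCm39, 6 exons). Its CPM was 112, 111, 122 and 110 in BSA and 147, 140, 141 and 149 in palmitate. The palmitate libraries all lay above the BSA libraries, and the fitted log2 fold change was 0.34 (SE 0.0559, edgeR adjusted p = 1.17e-05). It was called in each of the 16 fits that left out a library and in each of the 10 other alternatives.

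Rpsa, at chr9:119956755-119962787 (plus strand, 7 exons), was the most abundant gene of the set without scaling by length. Its CPM was 2128, 1533, 1771 and 1967 in BSA and 2260, 2294, 2185 and 2173 in palmitate, so that the groups did not overlap. The log2 fold change was 0.27 (SE 0.0712, edgeR adjusted p = 0.00566), and it was called in all 16 fits that left out a library. Of its coding windows, 77.2% match other loci.

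Rpl35, at chr2:38891591-38895637 (minus strand, 4 exons), lies near the peptide exit of the large subunit. It had 285, 183, 165 and 279 CPM in BSA and 318, 355, 319 and 290 CPM in palmitate, and its BSA libraries spread widely although the groups did not overlap. The log2 fold change of 0.49 (SE 0.176, edgeR adjusted p = 0.0448) was the largest of the called genes and lost its call in 12 of the 16 fits that left out a library, with adjusted p up to 0.134 without BSA replicate 2. The other called genes were higher by log2 fold changes of 0.20 in Rps27l, a paralogue of Rps27 that p53 induces, 0.20 in Rpl30, 0.16 in Rpl4 and 0.16 in Rpl26, of which Rpl30 was named after its value was seen. Upper-quartile normalization left Rpl35 (adjusted p = 0.0817), Rps27l (0.142), Rpl4 (0.204) and Rpl26 (0.212) uncalled by edgeR. Rpl35 was uncalled in 6 of the 10 other alternatives, among them library totals (0.0715) and the compared libraries alone (0.115). Of the 16 fits that left out a library, Rpl26 lost its call in 4 (adjusted p up to 0.171) and Rpl4 in 2 (up to 0.0768).

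Rps16, a 40S protein at chr7:28049982-28052580 (plus strand, 5 exons), was the only gene called lower with palmitate. It had 127, 141, 121 and 125 CPM in BSA and 107, 113, 110 and 123 CPM in palmitate, and the groups overlapped. The log2 fold change was -0.18 (SE 0.0687, edgeR adjusted p = 0.0453). The call was lost in 8 of the 16 fits that left out a library, with adjusted p up to 0.124 without BSA replicate 2. It was also lost with the level of short transcripts as a covariate, described below (edgeR adjusted p = 0.169). All coding windows of Rps16 match other loci.

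**Figure D3:**
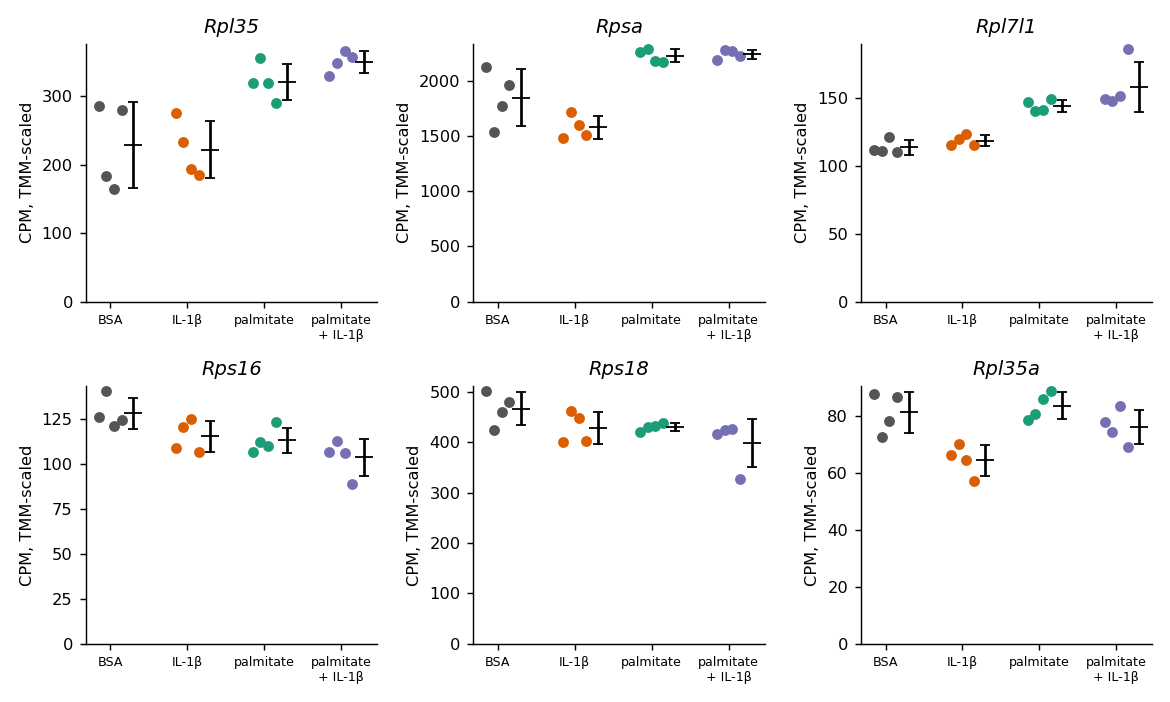
CPM on TMM-scaled library sizes of 6 ribosomal protein genes in each of the 16 libraries (points) with mean and SD of 4 libraries per condition (bars), on axes that start at 0. Rpl7l1 sits at 110 to 122 in BSA and 140 to 149 in palmitate, and Rpl35a is lowest in IL-1β at 57.2 to 70.2.

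With IL-1β alone, every called change was a fall. Against BSA, 0 of 87 genes were higher and 5 (5.75%) were lower by edgeR, beside 10.1% of all genes called higher and 4.97% called lower. Among the 77 set genes with an average log2 CPM above 4, 0% were higher and 6.49% lower, beside 17.7% and 6.92% of the 7097 others. At an unadjusted p under 0.05, 0 of the 87 genes were higher and 12 lower, beside 2618 and 1838 of all 16306 genes tested. DESeq2 called 0 higher and 6 lower, beside 1696 and 865 of all genes. The median log2 fold change was -0.06, beside -0.0049 over all genes, and with upper-quartile normalization 10 genes were lower. Over all genes 1192 were then called higher and 1551 lower, so that 43.5% of calls were rises, in place of 67.1%. Leaving out BSA replicate 1 brought the 5 lower genes to 1.

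Rpl35a, a 60S protein at chr16:32876630-32880559 (plus strand, 5 exons), fell most. Its CPM was 88.1, 72.8, 78.2 and 86.8 in BSA and 66.5, 70.2, 64.6 and 57.2 in IL-1β, with every IL-1β library below every BSA library. The log2 fold change was -0.33 (SE 0.0682, edgeR adjusted p = 0.00134), and the call was kept in all 16 fits that left out a library and in all 10 other alternatives.

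Rpsa fell with IL-1β by 0.23 on the log2 scale (SE 0.0712, edgeR adjusted p = 0.0363), from the BSA values above to 1486, 1715, 1600 and 1510.5 CPM, and the groups overlapped. Its call was lost in 8 of the 16 fits without a library, with adjusted p up to 0.115 without IL-1β replicate 8. Rpl10a had log2 fold changes of -0.18 (edgeR adjusted p = 0.0204), Rpl37a of -0.16 (edgeR adjusted p = 0.0304) and Rpl5 of -0.14 (edgeR adjusted p = 0.0446). These calls were lost in 4, 5 and 10 of the 16 fits that left out a library, with adjusted p up to 0.11 and 0.151 without IL-1β replicate 8 and 0.205 without BSA replicate 1. Rpl5 binds 5S RNA together with Rpl11 and, outside the ribosome, MDM2. Rpl11 had a log2 fold change of -0.29 (SE 0.113, edgeR adjusted p = 0.109).

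The combination gave calls in both directions. Against BSA, 10 of 87 genes (11.5%) were higher and 7 (8.05%) were lower, beside 24.8% of all genes called higher and 22.5% called lower. Among the 77 set genes with an average log2 CPM above 4, 10.4% were higher and 9.09% lower, beside 37.2% and 24.5% of the 7097 others. The median log2 fold change of the 87 genes was 0.09, beside 0.0017 over all genes, and with upper-quartile normalization 6 genes were higher and 13 lower. Over all genes 3115 were then called higher and 4938 lower, so that 38.7% of calls were rises, in place of 52.4%. Of the 45 core 60S genes 6 were higher and 3 lower, and of the 31 core 40S genes 1 was higher and 4 lower, a split whose difference was not tested.

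Rps19bp1 showed the largest fitted rise among the genes called. It was low throughout, at 4.14, 3.33, 2.63 and 4.68 CPM in BSA and 5.52, 4.90, 5.50 and 7.59 CPM in palmitate + IL-1β. The groups did not overlap, and the log2 fold change was 0.65 (SE 0.193, edgeR adjusted p = 0.00889). With the level of short transcripts as a covariate, described below, it was 0.32 and not called (edgeR adjusted p = 0.0692). Rpl35 reached 329, 348, 366 and 358 CPM, above every BSA library, a log2 fold change of 0.62 (SE 0.176, edgeR adjusted p = 0.0115) that was called in all 16 fits without a library. Rpl6l, annotated as a processed pseudogene, had 1.48, 1.03, 1.22 and 1.89 CPM in BSA and 2.18, 2.18, 2.03 and 1.84 CPM with both agents. Its groups overlapped and its log2 fold change of 0.55 (SE 0.201, edgeR adjusted p = 0.0238) lost its call in 4 of 16 fits, with adjusted p up to 0.113 without BSA replicate 2. Rpl6l was also uncalled by edgeR with upper-quartile normalization (adjusted p = 0.0523) and with the covariate (log2 fold change 0.29, adjusted p = 0.272).

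Rpl7l1 and Rpsa were again higher with both agents. Rpl7l1 had 149, 148, 151 and 186 CPM, a log2 fold change of 0.48 (SE 0.0559, edgeR adjusted p = 3.33e-08), and Rpsa had 2193, 2283, 2270 and 2230 CPM, a log2 fold change of 0.28 (SE 0.0712, edgeR adjusted p = 0.00327). Neither overlapped BSA. The remaining rises were 0.25 in Rpl26, 0.23 in Rpl29, 0.22 in Rpl22, 0.18 in Rpl30 and 0.15 in Rpl4 on the log2 scale, of which Rpl29 and Rpl30 were named after their values were seen. Rpl4 lost its call in 3 of the 16 fits that left out a library, with edgeR adjusted p up to 0.0922 without BSA replicate 3, and in 6 of the 10 other alternatives, among them upper-quartile normalization (0.314), library totals (0.181) and the covariate (log2 fold change 0.05, adjusted p = 0.341).

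Among the falls with both agents, Rps16 led. It had 107, 113, 107 and 88.9 CPM, below every BSA library, and its log2 fold change was -0.30 (SE 0.0688, edgeR adjusted p = 0.000987). Rps18, a 40S protein at chr17:34170972-34175057 (minus strand, 5 exons), had 503, 424, 460 and 480 CPM in BSA and 416, 424, 427 and 328 CPM with both agents. Its log2 fold change was -0.23 (SE 0.0728, edgeR adjusted p = 0.015), the groups overlapped, and replicate 16 was far lower than the other three. Rpl37a fell by 0.23 on the log2 scale (SE 0.0513, edgeR adjusted p = 0.00049), and its 4 libraries lay below all BSA libraries. These 3 falls were called in all 16 fits that left out a library. Log2 fold changes of -0.12 each were also called in Rpl10, Rpl7 and Rps2, of which Rpl7 was named after its value was seen. Rps2 lost its call in 10 of the 16 fits that left out a library, with edgeR adjusted p up to 0.121 without BSA replicate 3, and with the covariate (adjusted p = 0.0597).

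**Figure D4:**
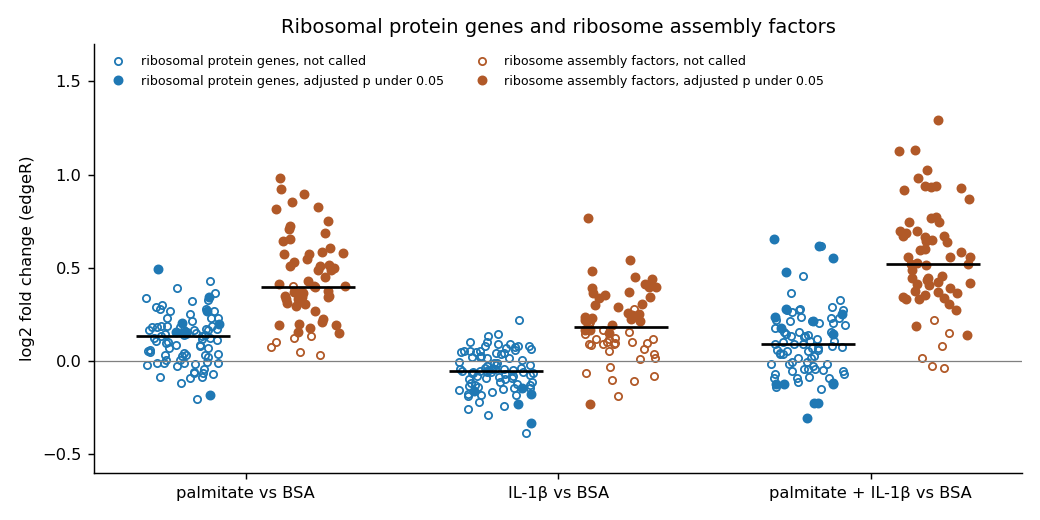
Log2 fold change (edgeR) against BSA of the 87 ribosomal protein genes and of 62 ribosome assembly factors, with each gene a point (filled where the adjusted p was under 0.05) and the median a bar. Medians of the ribosomal protein genes are 0.13, -0.06 and 0.09 in palmitate, IL-1β and the combination, and those of the assembly factors 0.40, 0.18 and 0.52.

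Adding IL-1β to palmitate left nearly all genes of the set uncalled. Against palmitate, 0 were higher and 1 (Rpl37a, log2 fold change -0.18, SE 0.0514, edgeR adjusted p = 0.0196) was lower, beside 5.71% and 4.1% of all genes. At an unadjusted p under 0.05, 2 were higher and 6 lower, beside 1998 and 1637 of all 16306 genes tested. DESeq2 called 0 higher and 2 lower, beside 950 and 779 of all genes. The Rpl37a call was lost in 4 of the 16 fits that left out a library, with adjusted p up to 0.0976 without palmitate + IL-1β replicate 16.

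The most genes called higher came where IL-1β alone was the reference, and both comparisons below share its 4 libraries. Palmitate + IL-1β against IL-1β had 15 genes (17.2%) higher and 1 lower, beside 18.9% and 16.1% of all genes. Palmitate against IL-1β had 18 (20.7%) higher and 0 lower, beside 16.5% and 15.2%. With the covariate these became 9 higher and 2 lower for the combination, beside 16.9% and 13.6% of all genes, and 4 higher and 1 lower for palmitate, beside 12.2% and 10.4%. The median log2 fold changes went from 0.15 to -0.0166 and from 0.16 to -0.0175. Without the covariate, 18.2% and 23.4% of the 77 set genes with an average log2 CPM above 4 were higher, and 1.3% and 0% lower. Of the 7097 other genes of that abundance, 27.2% and 23.7% were higher and 19.8% and 18.9% lower. In palmitate against IL-1β without the covariate, 1 gene was lower at an unadjusted p under 0.05, beside 3189 of all 16306 genes tested. DESeq2 called 18 higher and 1 lower in that comparison, beside 2635 and 2498 of all genes. Rps24, a 40S protein, had 187, 186, 152 and 130 CPM in IL-1β, 221, 256, 248 and 226 CPM in palmitate and 236, 213, 266 and 255 CPM with both. Its log2 fold changes against IL-1β were 0.54 (SE 0.164, edgeR adjusted p = 0.0242) and 0.56 (SE 0.164, edgeR adjusted p = 0.0172), and its BSA libraries, at 249.95, 164, 145 and 214 CPM, overlapped all other conditions. These calls were lost in 4 and 2 of the 16 fits that left out a library, with adjusted p up to 0.0723 without IL-1β replicate 8 and 0.0551 without IL-1β replicate 7. Without the expression filter neither was called by edgeR (adjusted p = 0.0601 and 0.0515). With the covariate the log2 fold changes of Rps24 were 0.16, not called (edgeR adjusted p = 0.249), and 0.27 (edgeR adjusted p = 0.0214). Rps25 was the gene called lower with both agents against IL-1β (log2 fold change -0.20, SE 0.0733, edgeR adjusted p = 0.0429), a call lost in 9 of the 16 fits, with adjusted p up to 0.144 without IL-1β replicate 5. Without IL-1β replicate 8 the higher genes were 10 and 11 in these comparisons, and without IL-1β replicate 5 they were 27 and 36.

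No gene of the set was called for the interaction of palmitate and IL-1β, where 0.159% of all genes were called higher and 1.83% lower. At an unadjusted p under 0.05, 3 genes were higher and 0 lower, beside 594 and 1075 of all 16306 genes tested. DESeq2 called 0 of the set, beside 35 higher and 354 lower of all genes. The median interaction of the 87 genes was 0.02 on the log2 scale and 27 genes had a 95% interval within 1.2-fold of no interaction, and in the others an interaction of that size was not shown to be absent.

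The ribosomal protein genes of a library moved together between replicates. Over the 77 genes with an average log2 CPM above 4, the median deviation from the condition mean was -0.14 in BSA replicate 3, 0.10 in BSA replicate 4, 0.18 in IL-1β replicate 5 and -0.17 in IL-1β replicate 8, against -0.03 to 0.02 in the palmitate libraries. In IL-1β replicate 8 only 3 of the 77 genes were above the condition mean. The same deviation in 183 other protein-coding genes with transcripts under 1000 bases had the same sign in all 16 libraries, at -0.06, 0.05, 0.06 and -0.10 in the 4 named above. The median biological coefficient of variation was 7.78% for the 77 genes and 5.03% for all other genes of that abundance.

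These short transcripts also moved with the conditions. Against BSA their median log2 fold change was 0.05 with the fatty acid, -0.06 with the cytokine and 0.01 with the combination. Against IL-1β it was 0.11 with the fatty acid and 0.07 with the combination. With the level of short transcripts in each library as a covariate, an alternative added after the data were seen, the median of the ribosomal protein genes was -0.06 in palmitate and -0.04 in palmitate + IL-1β against BSA, the opposite sign to the fit without it. The counts became 1 higher and 6 lower in palmitate, 0 and 8 in IL-1β, and 5 and 15 in palmitate + IL-1β, beside 19% and 14.5%, 11.5% and 6.13%, and 24.5% and 21.1% of all genes. Rpl7l1 kept its rises at 0.35 (edgeR adjusted p = 0.000647) and 0.48 on the log2 scale, and Rpl35a its fall with IL-1β at -0.32. Calls kept from the fit without the covariate were 1 of 8 with palmitate, 5 of 5 with IL-1β and 10 of 17 with both. Rpl35 had 0.17 (edgeR adjusted p = 0.356) and Rpsa 0.18 (edgeR adjusted p = 0.106) with palmitate, and both lost that call. Rps16, at -0.18 (edgeR adjusted p = 0.169), lost it too and was not among the 6 lower genes. Rps19, a 40S protein mutated in Diamond-Blackfan anaemia, went from 0.00 to -0.14 (edgeR adjusted p = 0.0267). The direction of the median with palmitate thus depended on this choice, and the part of short transcripts in the changes was not tested further.

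**Figure D5:**
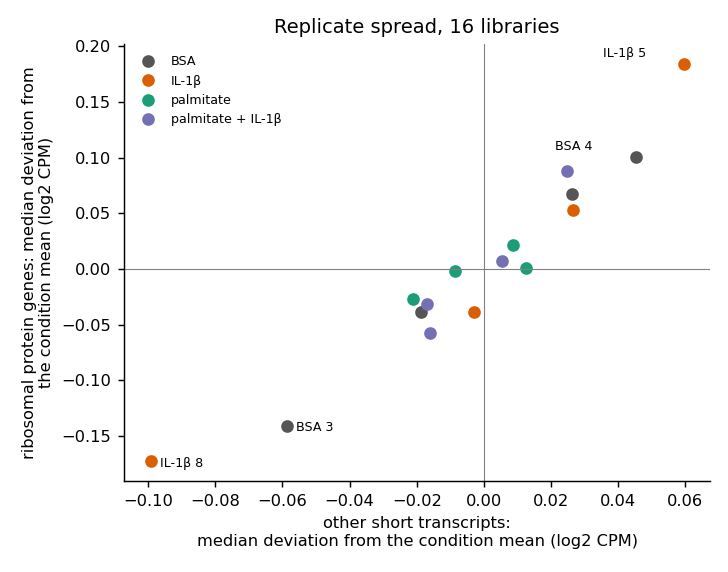
Median deviation from the condition mean in log2 CPM, in each of the 16 libraries, of 77 ribosomal protein genes (vertical axis) against that of 183 other short protein-coding transcripts (horizontal axis), coloured by condition. The libraries farthest from 0 on both axes are IL-1β replicates 5 and 8 and BSA replicates 3 and 4, and each library has the same sign on both axes.

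The following genes are described for their roles. The stalk proteins, which recruit translation factors to the ribosome, had log2 fold changes with palmitate of 0.12 (Rplp0), -0.01 (Rplp1) and -0.01 (Rplp2). Rplp1 was at 1033 ± 45.1 CPM (SD, n = 4) in BSA and 1025 ± 33.5 in palmitate, with a 95% interval of the log2 fold change from -0.10 to 0.08, whereas the interval of Rplp2 ran from -0.33 to 0.32. Rpl3, which shapes the peptidyl transferase centre, had a log2 fold change of 0.03 with palmitate and 0.05 with both agents. Rps6, the substrate of S6 kinase, had -0.07 and 0.02, Rps3, at the mRNA entry, -0.02 and -0.09, and Rps14, lost in the 5q- syndrome of human blood, -0.08 and -0.09. Rps27a, made as a fusion with ubiquitin, had 0.18 and 0.13, Rpl13a -0.03 and 0.06, and Rpl11 0.11 and -0.05, none of them called. Rpl10, which joins the large subunit last, was called only with both agents, and its call was lost without palmitate + IL-1β replicate 16 (edgeR adjusted p = 0.0719).

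Paralogues of the set were lower than their partners in BSA. Rpl22 stood at 422 CPM per kb and Rpl22l1 at 53.9, Rps4x at 729 and Rps4l at 3.25, Rps27 at 111 and Rps27l at 47.7, and Rpl7 at 539 and Rpl7l1 at 85.1. Rpl39l, Rpl3l and Rpl10l, relatives of Rpl39 (46.0 CPM per kb), Rpl3 (385) and Rpl10 (697), were under the count minimum. Within pairs the changes differed in sign or size. With both agents the log2 fold change was 0.22 in Rpl22 and 0.12 in Rpl22l1, and -0.12 in Rpl7 and 0.48 in Rpl7l1, whose calls had opposite directions. The differences within pairs were not tested.

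The Rps27 family holds coding sequence that is shared between loci and coding sequence that is not. The coding sequences of Rps27, Rps27l and Rps27rt have 255 bases each. Rps27 and the intronless Rps27rt are the same at all 255 bases, and Rps27l differs from both at 61. Coding bases 7 to 36 are shown, the window in 1 exon where Rps27 and Rps27l differ most, with capitals where a base differs from Rps27 (GRCm39).
Rps27 (chr3:90120579-90120608, minus strand): ctcgcaaaggatctccttcatccctctcca
Rps27l (chr9:66854113-66854142, plus strand): ctGgcTaGAgatctGTtAcaCccTtcCTTG
Rps27rt (chr9:114811740-114811769, minus strand): ctcgcaaaggatctccttcatccctctcca
All coding windows of Rps27 and none of Rps27l match another locus. Rps27 had 63.9, 64.4, 51.6 and 52.6 CPM in BSA and 51.9, 63.7, 58.2 and 55.7 CPM in palmitate, overlapping groups with a 95% interval of the log2 fold change from -0.27 to 0.24. Rps27l had 23.9, 24.6, 26.9 and 25.2 CPM in BSA and 27.6, 27.2, 29.4 and 31.6 CPM in palmitate, with no overlap (edgeR adjusted p = 0.0221). The Rps27l call was lost in 4 of the 16 fits that left out a library, with adjusted p up to 0.108 without BSA replicate 1.

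Of the ribosomal proteins that the symbol rule misses, Fau, which encodes a 40S protein fused to a ubiquitin-like part, was called higher with palmitate (log2 fold change 0.32, SE 0.0825, edgeR adjusted p = 0.00607) and with both agents (0.35, SE 0.0825, edgeR adjusted p = 0.00239). Its lowest and highest CPM were 201 and 219 in BSA and 244 and 293 in palmitate, with no overlap. Rack1, a 40S scaffold protein, had log2 fold changes of -0.04 and -0.10 and was not called.

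Assembly factors, which build ribosomes in the nucleolus and are not part of them, are given beside the ribosomal protein genes. Of 62 assembly factors tested, 55 were higher and 0 lower with palmitate (median log2 fold change 0.40), 32 higher and 1 lower with IL-1β (0.18), and 56 higher and 0 lower with both (0.52). Of all genes tested, 19.8%, 10.1% and 24.8% were called higher and 17.5%, 4.97% and 22.5% lower in these comparisons. The difference from the ribosomal protein genes was not tested. Gar1, a protein of the snoRNPs that guide pseudouridylation, rose from 5.78 ± 0.896 to 11.5 ± 0.528 CPM (SD, n = 4) with palmitate, a log2 fold change of 0.98 (edgeR adjusted p = 1.08e-08). Mdn1, an ATPase that remodels pre-60S particles, rose most with IL-1β (0.77) and with both agents (1.29 on the log2 scale). Of 15 genes of the RNA polymerase I machinery, which transcribes rRNA, 6, 4 and 10 were higher in the 3 conditions and 0 were lower. Polr1a, its largest subunit, rose by 0.80 with palmitate and 0.91 with both, and Polr1b by 0.41 with IL-1β, on the log2 scale. The 3 comparisons share the BSA libraries.

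Other lists around translation held calls in both directions, apart from the snoRNA host genes. Shares of all genes called higher were 19.8%, 10.1% and 24.8% and of all genes called lower 17.5%, 4.97% and 22.5%. Of 17 translation factors with TOP mRNAs, 4 were higher and 1 lower with palmitate, 0 and 0 with IL-1β, and 5 and 3 with both, led by Eif3e (0.24) and Hnrnpa1 (0.27). Eef1a1 and Eef2, the elongation factors, had log2 fold changes of -0.01 and -0.07 with palmitate and -0.04 and -0.11 with both, of which Eef2 with both was called (edgeR adjusted p = 0.0285). Of 8 snoRNA host genes with TOP transcripts, 3, 1 and 6 were higher and 0 lower, led by Snhg8 (0.94) with palmitate and Snhg1 with IL-1β (0.47) and with both (0.82). Of 33 genes of TORC1 and MYC regulation, 14 were higher and 5 lower with palmitate, 5 and 4 with IL-1β, and 14 and 8 with both. Myc, a transcription factor of ribosome supply, went from 8.93 ± 1.18 CPM in BSA to 20.2 ± 0.143 in palmitate, 19.8 ± 3.29 in IL-1β and 34.4 ± 4.23 with both, log2 fold changes of 1.17, 1.14 and 1.94. Of 23 genes of stalled ribosome rescue and ribotoxic signalling, 13 were higher and 1 lower, 7 and 0, and 14 and 3. Edf1, a sensor of collided ribosomes, led with palmitate (0.81) and with both (0.72), and Mdm2 with IL-1β (0.31). Of 78 mitochondrial ribosomal protein genes, 10 were higher and 2 lower, 0 and 3, and 16 and 6, led by Mrpl38 (0.44), Mrpl52 (-0.37) and Mrps6 (-0.59).

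The 5 genes outside the rule whose log2 CPM over the 16 libraries was most like the summed level of the 87 genes were Ndufa2 (Pearson r 0.96), Tmed2 (0.95), Eef1b2 (0.94), Tmed9 (0.94) and Arpc1b (0.94). The 16 points share library and condition, and r is given as a measure of likeness. By promoter, 2 of the 30 genes with the TOP tract were higher and 0 lower with palmitate, against 4 higher and 1 lower of the 33 without it, and the median log2 fold changes were 0.09 and 0.14. With IL-1β 0 of the 30 and 5 of the 33 were lower. With the combination 1 of the 30 was higher and 2 lower, against 6 higher and 3 lower of the 33, and the medians were both 0.09. Over all genes tested, 19.8%, 10.1% and 24.8% were called higher with palmitate, IL-1β and the combination, and 17.5%, 4.97% and 22.5% lower. Whether genes with and without the tract differ was not tested, and the split rests on the first listed start site.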

How the data were processed

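RNA from 16 mGF samples, 4 per condition, was sequenced. The authors deposited whole-number counts of reads per gene, made with Trimmomatic 0.39, STAR 2.7.10a and HTSeq 2.0.9 by strand on GRCm39 with a GENCODE annotation, and only uniquely placed reads were counted. A strand-specific kit for total RNA is given in the labels but priming by oligo(dT) in the methods, and which applies is not settled here. Summary lines for reads without a gene were left out of library sizes and made up 12.8% to 15.9% (no feature), 3.42% to 4.51% (not unique) and 1.22% to 1.37% (ambiguous) of each library. Counts were tested with edgeR 4.0.16 in R 4.3.3 (TMM, filterByExpr with a minimum count of 10, robust quasi-likelihood fit of all 16 libraries, Benjamini-Hochberg adjustment over 16306 genes, threshold 0.05). The standard error was the log2 fold change divided by the square root of F. DESeq2 1.42.0, other scalings, filters, the compared libraries alone, a 1.2-fold minimum and leaving out each library were alternatives. A covariate of short transcript level was added after the data were seen. The test was checked on simulated data. Transcripts, coordinates and shared windows came from GRCm39 with a later GENCODE release, using the principal coding transcript in place of the longest one planned, and promoters came from RefSeq on GRCm38.p6. The members and gene lists were chosen with earlier results of these data known. Named genes were the 3 largest called rises and falls per comparison, the 5 highest and 5 lowest levels per kb, and genes listed for their roles. Depth was 21234789 to 92752515 counts per library. Single results for a few genes are not reported here.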

Additional observations from a re-analysis of the deposited data

Results flagged for a closer look

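Among 156 combinations of a named ribosomal protein gene and a condition, 8 had a library that lay far from the other three by Dixon's criterion, and chance gives about 1 in 20. In palmitate + IL-1β, replicate 15 had 556 CPM of Rpl3 (next 538), and replicate 16 had 186 CPM of Rpl7l1 (next 151) and 328 CPM of Rps18 (next 416). In BSA, replicate 3 had 145 CPM of Rpl37a (next 154), 636 CPM of Rpl4 (next 711) and 122 CPM of Rpl7l1 (next 112). IL-1β replicate 5 had 123 CPM of Rps25 (next 100.1), and palmitate replicate 9 had 145 CPM of Rps3 (next 149).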

How the results depend on the processing

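Counts are of ribosomal protein genes called higher or lower. For the filters, the compared libraries alone and the fits without a library, counts over all genes are not given here. No paired analysis was possible because each library carries its own number and no number is shared between conditions. With upper-quartile normalization, palmitate against BSA had 2 higher and 4 lower, IL-1β against BSA 10 lower, the combination against BSA 6 higher and 13 lower, the combination against palmitate 2 lower and against IL-1β 2 lower, and palmitate against IL-1β 1 lower. Over all genes, 4064, 1551, 4938, 782, 3156 and 2864 were lower in that order, in place of 2855, 810, 3664, 668, 2630 and 2471. All genes called higher were 2402, 1192, 3115, 860, 2632 and 2389, in place of 3228, 1654, 4041, 931, 3082 and 2685. With library totals only, the values were 3 and 4 for palmitate, 8 lower for IL-1β, 12 lower for the combination and 1 lower for palmitate against IL-1β. Over all genes they were 2443 higher and 3886 lower, 1252 and 1264, 3337 and 4572, and 2309 and 2842. DESeq2 gave 2 lower for the combination against palmitate and 1 lower for palmitate against IL-1β, beside 779 and 2498 of all genes. Without the expression filter, 2 were lower with palmitate, 11 with IL-1β and 12 with the combination, 3 with the combination against palmitate, 4 against IL-1β, and 1 with palmitate against IL-1β, which a minimum of 10 counts in every library also gave. Fitting only the libraries compared gave 11 higher and 2 lower with palmitate, 3 lower for the combination against palmitate and 1 lower for palmitate against IL-1β. With the short transcript covariate the counts were 1 and 6 (palmitate), 8 lower (IL-1β), 5 and 15 (combination), 1 and 2 (combination against palmitate), 9 and 2 (combination against IL-1β) and 4 and 1 (palmitate against IL-1β), and the median log2 fold changes changed sign in these comparisons apart from IL-1β against BSA, to -0.0584 (palmitate), -0.037 (combination), 0.0127 (combination against palmitate), -0.0166 (combination against IL-1β) and -0.0175 (palmitate against IL-1β), as did Rps19 with palmitate, to -0.14. Over all genes the covariate gave 6.9% higher and 5.31% lower for the combination against palmitate. With the 1.2-fold minimum 3 and 0 remained called for palmitate, 1 lower for IL-1β, 5 and 1 for the combination, 0 lower against palmitate, 8 and 0 against IL-1β and 9 higher for palmitate against IL-1β. Over all genes 4116, 1291, 5567, 788, 3821 and 3283 remained in the same order, both directions together. The cause of these shifts was not tested. Leaving out each library gave 4 to 11 higher and 0 to 1 lower with palmitate, 0 higher and 1 to 6 lower with IL-1β, 7 to 14 and 4 to 8 with the combination, 0 and 0 to 1 against palmitate, 10 to 27 and 0 to 2 against IL-1β, 11 to 36 and 0 to 1 for palmitate against IL-1β, and 0 to 1 and 0 for the interaction, whose median ran from -0.041 to 0.0889 and so changed sign. The median with palmitate ran from 0.07 to 0.16. The fewest rises with palmitate came without BSA replicate 2 and the most without BSA replicate 4, with the combination without BSA replicates 3 and 4, and against IL-1β without IL-1β replicates 8 and 5. Mean shares without each library were 2.01% to 2.10% (BSA), 1.87% to 1.97% (IL-1β), 2.10% to 2.12% (palmitate) and 2.08% to 2.11% (combination). Without mitochondrially encoded counts the shares were 2.36%, 2.18%, 2.41% and 2.36%, and over the 19 genes with little shared sequence 0.317%, 0.295%, 0.326% and 0.318%. Depth limits Rps3a3 and other genes near the count minimum most.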
